A study of Homo sapiens with 16 samples.

Results

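The AP-1 transcription factor genes described here were *FOS*, *FOSB*, *FOSL1*, *FOSL2*, *JUN*, *JUNB*, *JUND*, *BATF*, *MAFF* and *ATF2*, 10 of the 20007 protein-coding genes of GENCODE release 44. They were listed by name, and each was followed through every H3K4me3 and H3K27me3 region within 3 kb of any of its annotated start sites. The data were CUT&RUN peak lists, in which an antibody-guided nuclease releases chromatin that carries a histone mark and enriched stretches are called as peaks. The cells were MCF-10A, a nontransformed human breast epithelial line, exposed for 24 hours to vehicle (PBS) or to 5 mM octanoic acid (OA), a medium-chain fatty acid. Each treatment had 3 H3K4me3 and 3 H3K27me3 libraries from cells seeded in triplicate, and untreated MCF-10A cells gave 2 H3K4me3 libraries (positive control) and 2 IgG libraries (negative control). Every library came from the same cell line in culture, so the replicates measured the spread between cultures and not between people.

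AP-1 is a dimer of basic leucine zipper proteins that carries growth factor, stress and cytokine signals to DNA. JUN proteins pair with each other or with FOS proteins, whereas FOS proteins need a JUN partner, and the dimers bind the heptamer TGANTCA. In epithelial cells, *FOS*, *FOSB*, *JUN* and *JUNB* are immediate-early genes, switched on by phosphorylation of factors that already sit at their promoters. H3K4me3 marks the nucleosomes around start sites of active or poised genes, and H3K27me3 is the mark that Polycomb complexes place on silenced genes.

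Peaks were counted on the autosomes, X and Y, which left out 13.5% and 17.3% of the IgG peaks and at most 2.27% of any other list. So counted, the vehicle and OA H3K4me3 lists held 16086 to 21033 peaks. The untreated H3K4me3 lists held 12924 and 11242, and the IgG lists 1280 and 1131. The H3K27me3 lists held 9091 to 47648 broad peaks. Of 10 breast epithelial markers 6 had H3K4me3 in all 6 vehicle and OA libraries, beside 56.5% of all protein-coding genes. *CDH1* and *EPCAM* lacked a call in vehicle replicate 3, and *TP63* in that library and OA replicate 1. *KRT14* lacked one in vehicle replicate 3 and in all 3 OA libraries. None of 10 markers of blood, endothelial, liver, muscle, glial and stromal cells had an H3K4me3 region. The share of all genes without a region is not given. Read numbers were not analysed here. The lowest local background recovered from the narrow peaks, a measure of relative depth, was 0.45 reads in vehicle replicate 3. It was 0.633 to 0.853 in the other vehicle and OA libraries, so vehicle replicate 3 was the shallowest by this measure. The highest value was that of OA replicate 1. However, the median reads recovered at the summits of 11171 genes were low in both vehicle replicate 3 (36) and OA replicate 1 (41). The other vehicle and OA libraries had 88 to 133. Broad peak lists do not allow this recovery, and the depth behind the H3K27me3 calls is unknown.

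H3K4me3 was called at 9 of the 10 genes in all 6 vehicle and OA libraries, and the same held for 56.5% of all protein-coding genes. The exception was *BATF*, which encodes a partner of JUN proteins best known from lymphocytes and had no peak of either mark in any library within 3 kb of a start site. Its nearest H3K4me3 region lay 55322 bp away on the downstream side, and the nearest peak of any single H3K4me3 library was 13438 bp away, in OA replicate 3. No AP-1 gene was called in all 3 OA and no vehicle library, a pattern of 0.865% of all genes, and none showed the reverse pattern, which had a background of 0%. Both untreated H3K4me3 libraries had a peak at the same 9 genes, and the share of all genes in these libraries is not given. In the IgG libraries *ATF2*, which encodes a kinase-activated partner of JUN, was the only one of the 10 with a peak in an H3K4me3 region. That peak, in IgG replicate 1, was 298 bp long and ran from 278 bases before the start to 19 bases after it with a fold of 5.97, and 0.890% of all genes had an IgG peak in an H3K4me3 region.

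To set *BATF* beside marked genes and to show sites to which the peak edges can be compared, 5 promoters are given. Each is the 250 bases before the RefSeq start on GRCh38.p14, written 5′ to 3′ on the strand of the gene, with the start itself counted as base 0 here and in the distances that follow. Capitals mark the TATA box core (TATAAA), the CCAAT box, and the element TGACATCA, a variant of the TGACGTCA element that JUN and ATF2 dimers bind.
FOS (chr14:75278578-75278827, plus strand): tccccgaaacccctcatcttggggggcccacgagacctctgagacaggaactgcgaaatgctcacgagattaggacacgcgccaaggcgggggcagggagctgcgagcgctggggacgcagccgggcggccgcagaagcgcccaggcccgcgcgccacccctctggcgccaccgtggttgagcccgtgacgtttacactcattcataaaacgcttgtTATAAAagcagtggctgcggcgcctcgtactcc
FOSB (chr19:45467746-45467995, plus strand): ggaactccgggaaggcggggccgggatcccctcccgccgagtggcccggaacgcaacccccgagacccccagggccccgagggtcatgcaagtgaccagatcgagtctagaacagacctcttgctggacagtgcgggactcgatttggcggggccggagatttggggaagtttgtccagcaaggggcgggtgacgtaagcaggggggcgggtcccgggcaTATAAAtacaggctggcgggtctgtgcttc
JUN (chr1:58784048-58784297, minus strand): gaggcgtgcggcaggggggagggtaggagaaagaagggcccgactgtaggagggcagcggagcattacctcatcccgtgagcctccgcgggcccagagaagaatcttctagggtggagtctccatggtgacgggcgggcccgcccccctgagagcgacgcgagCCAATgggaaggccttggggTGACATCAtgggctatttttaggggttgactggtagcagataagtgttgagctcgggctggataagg
JUNB (chr19:12791236-12791485, plus strand): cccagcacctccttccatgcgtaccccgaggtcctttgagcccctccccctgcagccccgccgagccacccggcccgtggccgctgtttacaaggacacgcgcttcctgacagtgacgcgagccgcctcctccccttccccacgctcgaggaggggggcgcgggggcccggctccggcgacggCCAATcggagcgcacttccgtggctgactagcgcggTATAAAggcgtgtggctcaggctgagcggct
BATF (chr14:75522219-75522468, plus strand): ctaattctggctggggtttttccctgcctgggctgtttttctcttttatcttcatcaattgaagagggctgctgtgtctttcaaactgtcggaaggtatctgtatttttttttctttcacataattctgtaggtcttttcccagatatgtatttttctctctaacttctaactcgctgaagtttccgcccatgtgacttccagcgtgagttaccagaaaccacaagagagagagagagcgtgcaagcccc
The *BATF* stretch held 5 CpG and 43.2% GC, against medians of 17 CpG and 62% over 21613 promoters of the table, and 22% of promoters had fewer CpG. *JUN* had 14 CpG, *FOSB* 19, *FOS* 25, *JUNB* 27 and *JUND* 40. Among 2939 genes whose promoters had at most as many CpG as *BATF*, 9.8% had H3K4me3 in all 6 libraries and 82.6% had no region, compared with 71.2% and 18.3% of 12406 genes with more CpG. The lack of a region at *BATF* was thus shared by most promoters of its CpG content. *FOSL1* and *ATF2* had no entry in the promoter table.

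Exact letters were searched on both strands of the 250 bases. TATAAA stood at bases -33 to -28 of *FOS*, -30 to -25 of *FOSB* and -31 to -26 of *JUNB*, and 8.99% of all promoters held it. *JUN* had TGACATCA at -67 to -60, present in 1.95% of promoters. *JUND* and *MAFF* had TGACGTCA at -200 to -193 and -54 to -47, present in 2.04%. CCAAT, found in 33% of promoters, was in *JUN*, *JUNB*, *JUND* and *MAFF*. The AP-1 heptamer TGANTCA, found in 5.36%, and the serum response element core (CArG box), found in 1.19%, had no exact match in these stretches. Bases further upstream were not searched, so the lack of a match does not mean that a gene lacks the element.

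No AP-1 gene had an H3K27me3 region within 3 kb, against 13.8% of all protein-coding genes. The nearest region was 27698 bp from *ATF2*, and the others lay between 69221 bp (*JUND*) and 582695 bp (*BATF*) away. The closest H3K27me3 peak of any single library was 6811 bp from the start of *JUNB*, in OA replicate 1. *BATF* thus carried neither mark at its start sites. A weak broad peak can miss the caller's threshold in a shallow library, and OA replicate 3, with 9091 peaks, had the fewest.

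Except at *FOS*, the H3K4me3 regions reached further into the genes than upstream of them. The median gene tilted the same way in every vehicle and OA library. It had 584 to 946 bp under peaks after the start and 279 to 550 bp before it. *JUNB* and *JUND*, which encode JUN proteins and have a single exon, lay entirely under their regions, chr19:12791460-12793916 and chr19:18279642-18282076 (hg38). The *JUN* region, chr1:58781802-58785511, covered 69% of its single exon and 1464 bp outside the transcript. The *FOS* region, chr14:75277033-75280373, covered 45.4% of the transcript span, with 548 bp in exons, 998 bp in introns and 1795 bp before the start. At *FOSL2*, which encodes a FOS protein without the strong activation domain of FOS, the region chr2:28392885-28396078 began 27 bases after the canonical start and lay in 938 bp of exon and 2256 bp of intron. *FOSL1*, its close relative, had a region at chr11:65898551-65900642 with 1690 bp of intron.

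*MAFF* encodes a small MAF protein that lacks an activation domain. Its region, chr22:38201905-38203614, held 1402 bp of intron and 89 bp before the start. The *ATF2* region, chr2:175167006-175168800, ran from 597 bases before its start to 1197 after it. *FOSB* had its main region at chr19:45468212-45469943, from 216 bases after the start, and a second one at chr19:45467264-45467926 that was called in 2 libraries. Start sites of other genes fell inside some regions, among them the lncRNA *FOSL2-AS1* at *FOSL2*, the lncRNA *LINC01135* at *JUN*, the protein-coding *HOOK2* at *JUNB* and the miRNA gene *MIR933* at *ATF2*. Peaks there cannot be assigned to a single gene.

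**Figure D1:**
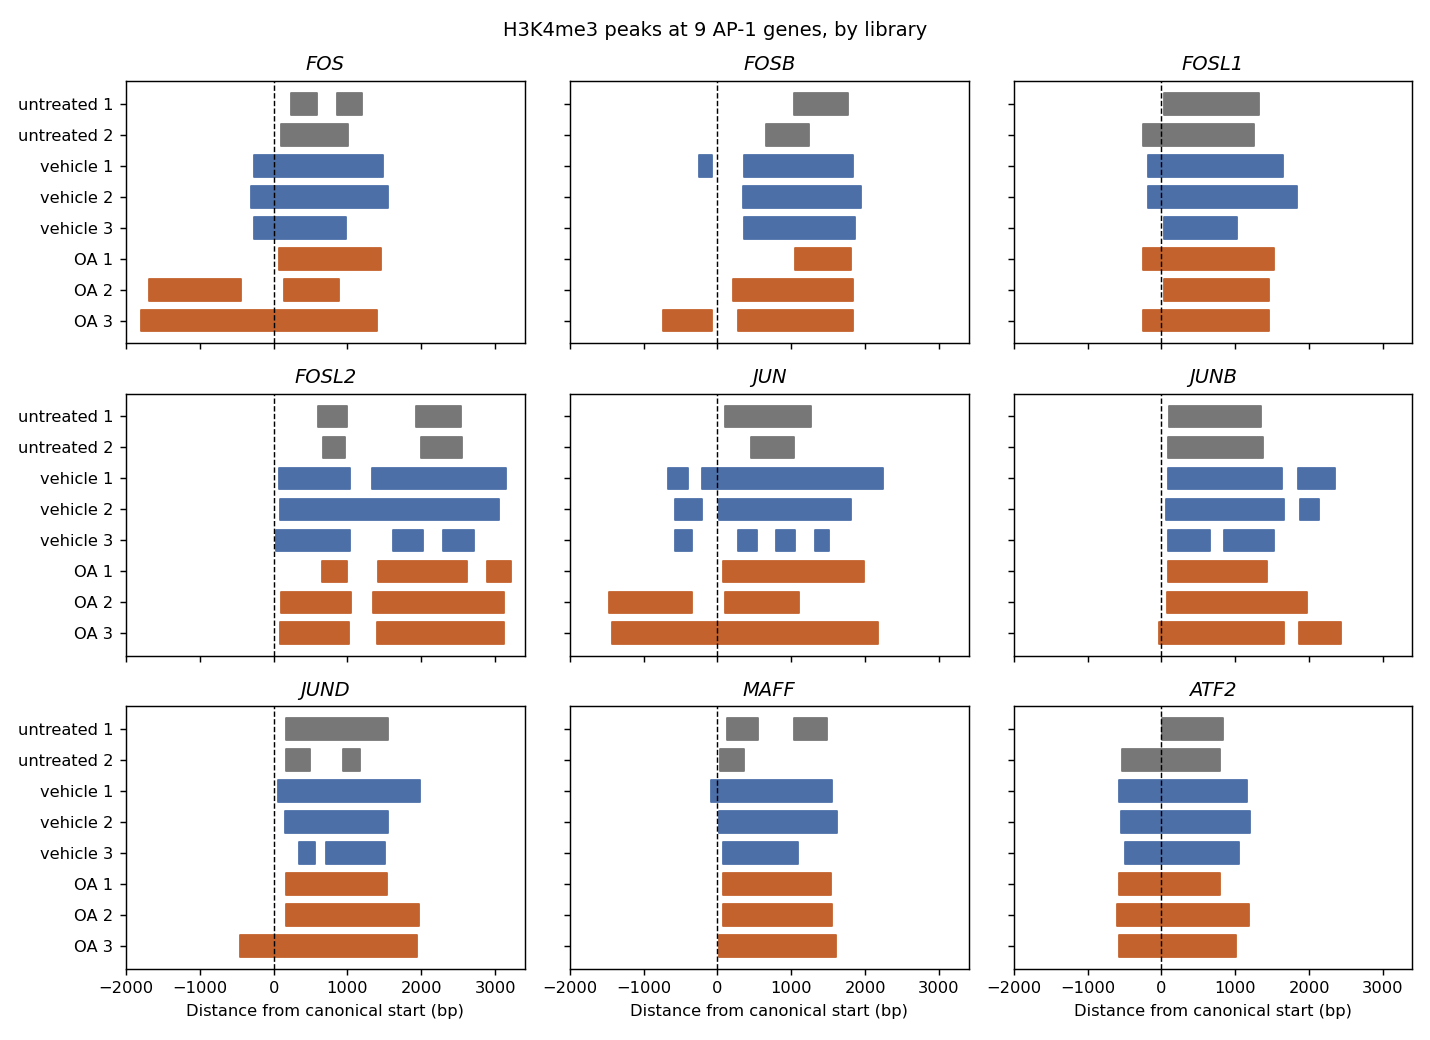
Bars show each H3K4me3 peak at the 9 marked AP-1 genes along the distance from the canonical start in bp (x axis, the dashed line is the start and negative values are upstream), with the 2 untreated (grey), 3 vehicle (blue) and 3 OA (orange) libraries on separate rows. Most bars lie to the right of the start, and at *FOS* and *JUN* the bars of OA replicates 2 and 3 begin between bases -1795 and -1433, against -666 to -262 in the vehicle libraries.

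In the 3 vehicle libraries, *FOSL2*, *JUNB* and *JUND* had no base before the start under a peak, a pattern seen at 4.56% of the 11310 genes called in all 6 libraries. In the OA libraries this was so for *FOSL2* and *MAFF*, against 3.94% of genes. The median gene had 279 to 550 bp before the start under peaks, depending on the library. The promoter sites given above were therefore often outside the peaks. The TATAAA of *FOS* was under a peak in each vehicle library as well as OA replicate 3, and that of *FOSB* and *JUNB* in none of the 6 libraries. The TGACATCA of *JUN* was under a peak in vehicle replicate 1 and OA replicate 3.

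The AP-1 genes had long peaks with a low fold over the local background. Fold is the value that the authors' caller gave the strongest peak of a gene, and length is the sum of the gene's peak lengths. All 9 marked genes were longer than the median gene (1314 bp) and below its fold (10.1) in the vehicle means, a combination found at 33.0% of the 11310 genes. In the OA means the same 9 genes had it, against 38.4%. This combination was not a planned comparison, and no test was made of it. *FOSL2* was at the far end, with a length of 2526 ± 613 bp (SD, n = 3 vehicle libraries), longer than 96.1% of genes, and a fold of 5.5 ± 1.95, higher than 1.4% of genes. *ATF2* had the highest vehicle fold of the 9 genes, 9.41 ± 1.73, over 1675 ± 114 bp. The recovered background under the strongest peaks was above the median gene at 5 to 8 of the 9 genes per library, and the recovered reads at the summit at 2 to 7 of the 9.

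**Figure D2:**
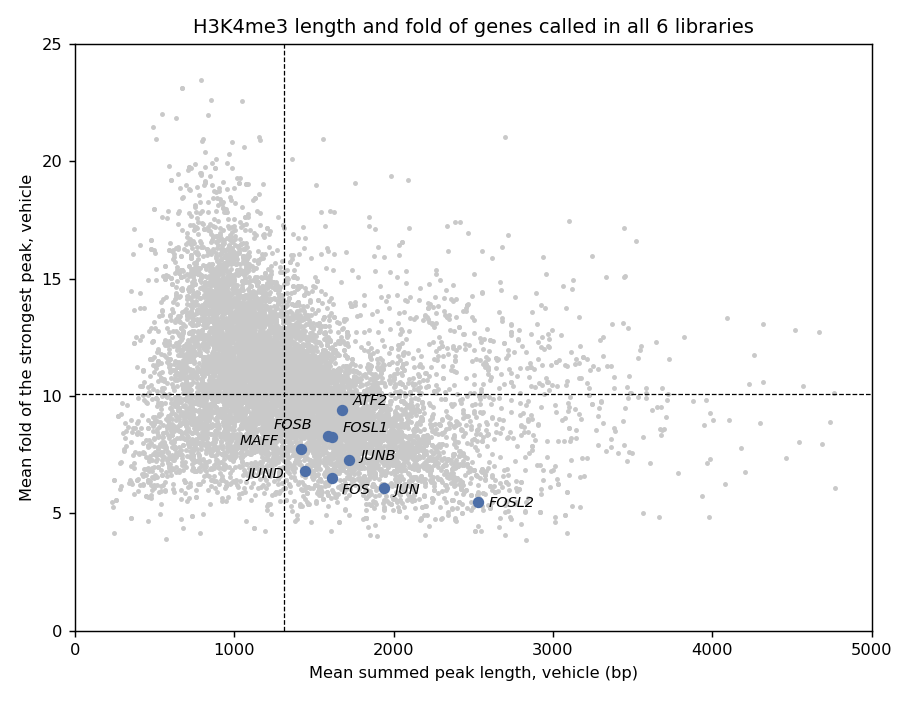
Each grey point is a gene with H3K4me3 in all 6 libraries, placed by its mean summed peak length in bp (x axis) and mean fold of its strongest peak (y axis) over the 3 vehicle libraries, with dashed lines at the medians and the 9 AP-1 genes in blue. All 9 lie to the right of the median length and below the median fold, and 3 genes fall outside the axes.

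The order of lengths in vehicle was *FOSL2*, *JUN*, *JUNB*, *ATF2*, *FOS*, *FOSL1*, *FOSB*, *JUND* and *MAFF*, and the ranges of neighbours in that order overlapped throughout. Strength was compared as the percentile of a peak's −log10 p among all peaks of its own library, since −log10 p itself depends on depth. By this measure the vehicle order was *ATF2* (87.4 ± 5.5), *JUNB* (72.2 ± 11.9), *FOSL1* (71.5 ± 19.5), *FOSL2* (62.6 ± 6.97), *FOSB* (54.6 ± 0.892), *FOS* (53.3 ± 9.35), *JUND* (53 ± 26.8), *JUN* (52.4 ± 19.4) and *MAFF* (52.3 ± 12.9; SD, n = 3 each). Only *FOSL2* and *FOSB* were neighbours whose ranges did not overlap. *ATF2* and *JUNB* were above the median gene (71.9), and the other 7 genes were below it.

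The main question was whether OA changed H3K4me3 at these genes. No AP-1 gene passed the test for length or for rank with limma, fitted across 11310 genes with Benjamini-Hochberg adjustment at 0.05. Over all genes, the rank test called 8 genes higher in OA (0.0707%) and 1 lower (0.00884%), and the length test called 0 in either direction (0%). At an unadjusted p under 0.05, *FOSL2* alone passed for rank and none for length, against 12.1% and 8.81% of all genes.

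*FOSL2* had the largest rank difference of the 9 genes. Vehicle replicates 1, 2 and 3 placed its strongest peak at percentiles 56, 62 and 69.9, and the OA replicates placed it at 32.7, 52.1 and 44.7. Every OA library was below every vehicle library. The difference was -19.5 ± 8.91 percentile points (SE; 95% interval -38.1 to -0.857; limma adjusted p = 0.392). The untreated libraries gave 66 and 18.7, a wider spread than within either treatment. The vehicle folds of 3.89, 4.93 and 7.66 overlapped the OA folds of 3.13, 4.15 and 3.36. Relative to the median gene, whose fold was lower in OA by 0.18 on the log2 scale, the *FOSL2* fold differed by -0.39 (log2; 95% interval -0.83 to 0.04; limma adjusted p = 0.713).

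*ATF2* stood at 82.3, 86.8 and 93.2 in the vehicle libraries and fell short of these in OA, at 70.2, 80.5 and 71.7, with a difference of -13.3 ± 7.9 points (SE; 95% interval -29.8 to 3.21; limma adjusted p = 0.523). The 3 vehicle percentiles of *FOSB* were 55.6, 54.3 and 53.9, those of OA were 53.2, 39.3 and 51.2, and its difference of -6.69 ± 8.59 points was smaller than its error. Thus 3 of the 9 genes had a lower percentile in every OA library, against 7.47% of all genes, and none a higher one, against 9.12%. With the same number of peaks taken from each library (16086), none of the 3 was free of overlap any more, although their differences kept the sign, at -25.9, -16.6 and -12.1 points for *FOSL2*, *ATF2* and *FOSB*. The fold itself was lower in every OA library at *FOSB*, *JUN*, *JUND* and *ATF2*, against 10.7% of genes, and higher at none, against 0.522%. Centred on the median gene, these folds differed by -0.06 to -0.13 on the log2 scale, within the errors of 0.17 to 0.20.

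**Figure D3:**
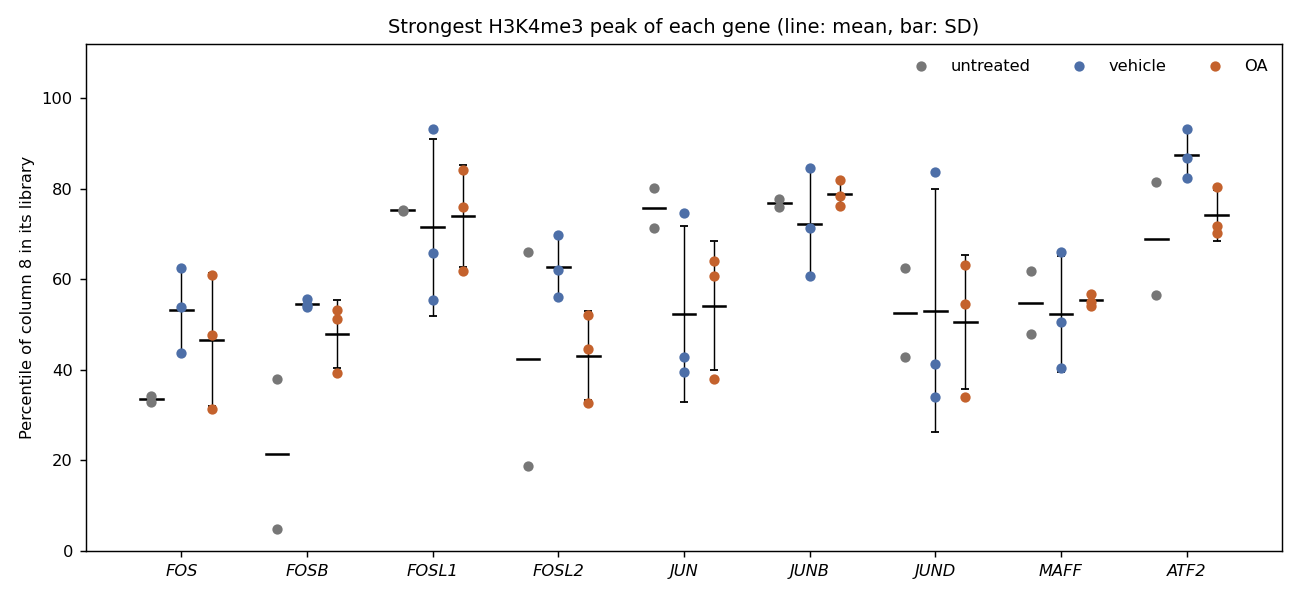
Points give the percentile of −log10 p of the strongest H3K4me3 peak (y axis, 0 to 100 within its library) for the 9 AP-1 genes (x axis) in 2 untreated (grey), 3 vehicle (blue) and 3 OA (orange) libraries, with a black line at the mean and bars of 1 SD for groups of 3. The OA points lie below the vehicle points without overlap at *FOSL2*, *ATF2* and *FOSB*.

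At the JUN genes and the other members the percentiles of the treatments overlapped. *JUN*, the best known AP-1 activator, stood at 74.7, 42.9 and 39.5 with vehicle, against 60.7, 37.9 and 64 with OA, a difference of 1.88 ± 10.4 points (SE). *JUNB*, a weaker activator, stood at 71.4, 84.5 and 60.8 with vehicle, against 76.1, 82 and 78.5 with OA, where the 3 libraries were close together. *JUND*, the JUN gene expressed in most tissues, was at 83.8, 41.3 and 34.1 in vehicle, with replicate 1 far above the others, and at 63.1, 34.1 and 54.5 in OA. *FOS*, the founding FOS protein gene, stood at 62.4, 43.7 and 53.9 with vehicle, against 47.8, 31.4 and 60.9 with OA. *FOSL1* stood at 93.3, 65.8 and 55.5 with vehicle, a range that held the OA values of 61.9, 75.9 and 84.2. The OA values of *MAFF*, 56.8, 55 and 54.2, also lay within the vehicle range set by 66, 50.5 and 40.5. The 95% intervals of these 6 differences reached from -26.6 to 26.2 percentile points, so shifts of that size could not be told from 0 with 3 libraries per treatment.

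Lengths overlapped between treatments at all 9 genes: none was longer in every OA library, against 6.16% of all genes, and none shorter, against 0.345%. *JUN* spanned 2717, 2148 and 948 bp with vehicle, against 1902, 2122 and 3603 bp with OA, and the lowest value belonged to vehicle replicate 3, in which the domain was broken into 4 short peaks. The centred log2 difference at *JUN* was 0.31 ± 0.26 (SE; 95% interval -0.29 to 0.90; limma adjusted p = 0.735). *FOS* spanned 1746, 1853 and 1242 bp with vehicle, against 1386, 1997 and 3189 bp with OA, a difference of 0.22 ± 0.21 (limma adjusted p = 0.758). Without OA replicate 1, both remaining OA libraries were longer at *FOS* than every vehicle library, and the share of all genes for this smaller set is not given. Without OA replicate 3 the value was -0.73, because the upstream *FOS* peak was then called in OA replicate 2 alone and dropped out of the regions.

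*JUND* spanned 1927, 1390 and 1005 bp with vehicle, against 1369, 1798 and 2390 bp with OA. *FOSB* was steady in vehicle, at 1661, 1600 and 1504 bp, and spread from 760 to 2218 bp in OA. *FOSL2* kept a long domain throughout, of 2785, 2966 and 1826 bp with vehicle, against 1870, 2726 and 2655 bp with OA. *FOSL1*, *JUNB*, *MAFF* and *ATF2* lay between 999 and 2262 bp in all 6 libraries, with differences of -0.26 to -0.03 on the log2 scale and no adjusted p below 0.677. Without vehicle replicate 3, the OA lengths at *FOSL1*, *FOSL2* and *MAFF* were all below both remaining vehicle libraries. The share of all genes for this smaller set of libraries is not given, so the pattern cannot be called particular to these genes.

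**Figure D4:**
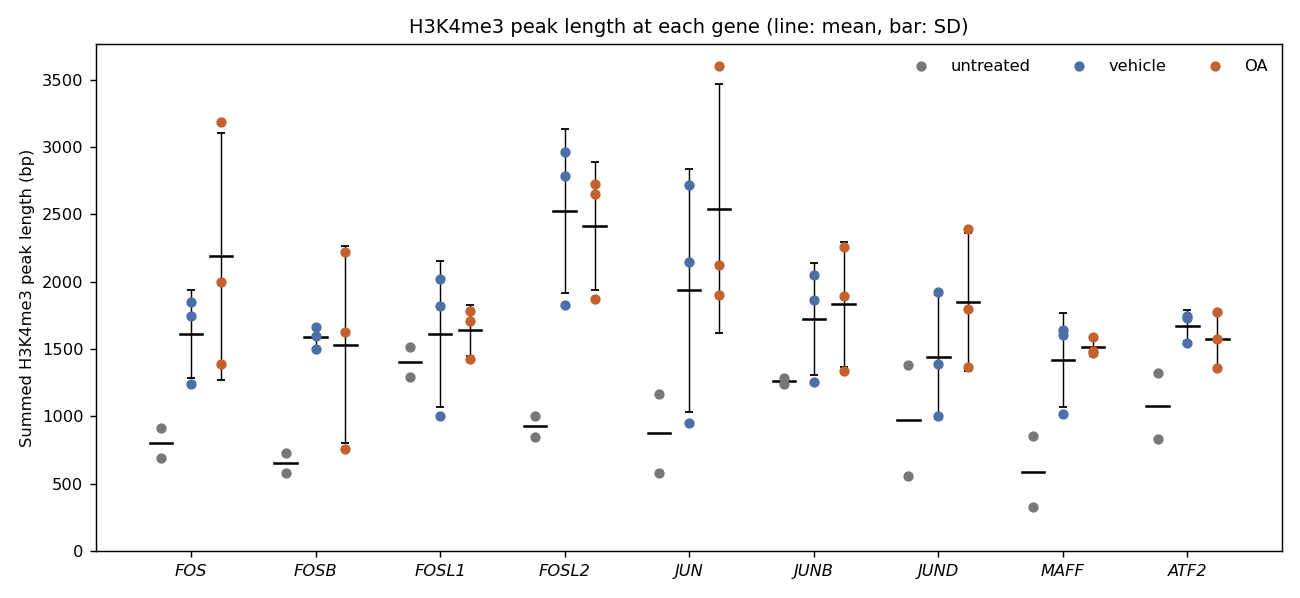
Points give the summed H3K4me3 peak length in bp (y axis) of the 9 AP-1 genes (x axis) in 2 untreated (grey), 3 vehicle (blue) and 3 OA (orange) libraries, with a black line at the mean and bars of 1 SD for groups of 3. Vehicle and OA points overlap at every gene, and the longest domain is that of *JUN* in OA replicate 3 at 3603 bp.

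Peak positions at *FOS* and *JUN* differed between libraries. At *FOS* the vehicle peaks began 268, 307 and 262 bases before the start. OA replicate 1 began 69 bases after it, whereas OA replicate 2 had a separate peak from -1691 to -441 and OA replicate 3 a single peak from -1795 to 1393. The summit of the strongest *FOS* peak was 162, 604 and 306 bases after the start in vehicle and 625 bases after it in OA replicate 1, but at bases -681 and -1417 in OA replicates 2 and 3. At *JUN* the first vehicle peaks began at bases -666, -575 and -570 and that of OA replicate 1 at base 78. The first peaks of OA replicates 2 and 3 began at -1464 and -1433. Unlike at *FOS*, the first vehicle peaks were short, at 267, 372 and 230 bp, and separate from the peaks that followed. In vehicle replicate 3 this first *JUN* peak was itself the strongest, at percentile 39.5, above the later peaks at 9.46 to 16.6. The summit of the strongest *JUN* peak was at bases 590, 616 and -469 in vehicle and 895, -748 and 905 in OA, so its place did not follow treatment.

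In bases under peaks before the start, *FOS* had 268, 307 and 262 in vehicle and 0, 1251 and 1795 in OA, and *JUN* had 471, 372 and 230 in vehicle and 0, 1123 and 1433 in OA. At both genes the lowest and the highest values were OA libraries. A gain of at least 500 bp over every vehicle library in at least 2 OA libraries was found at these 2 of the 9 genes, against 1.25% of the 11310 genes, and the reverse at none, against 0.141%. This rule was set after the positions were seen, and the groups overlap, so no test was made. The median gene also had more bases before the start in OA replicates 2 and 3 (480 and 550 bp) than in the other 4 libraries (279 to 420 bp), and the part of this in the values at *FOS* and *JUN* was not tested. At *JUND* a peak began before the start in OA replicate 3 alone (base -454), and at *FOSB* a separate upstream peak was called in vehicle replicate 1 (from base -253) and OA replicate 3 (from base -732).

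**Figure D5:**
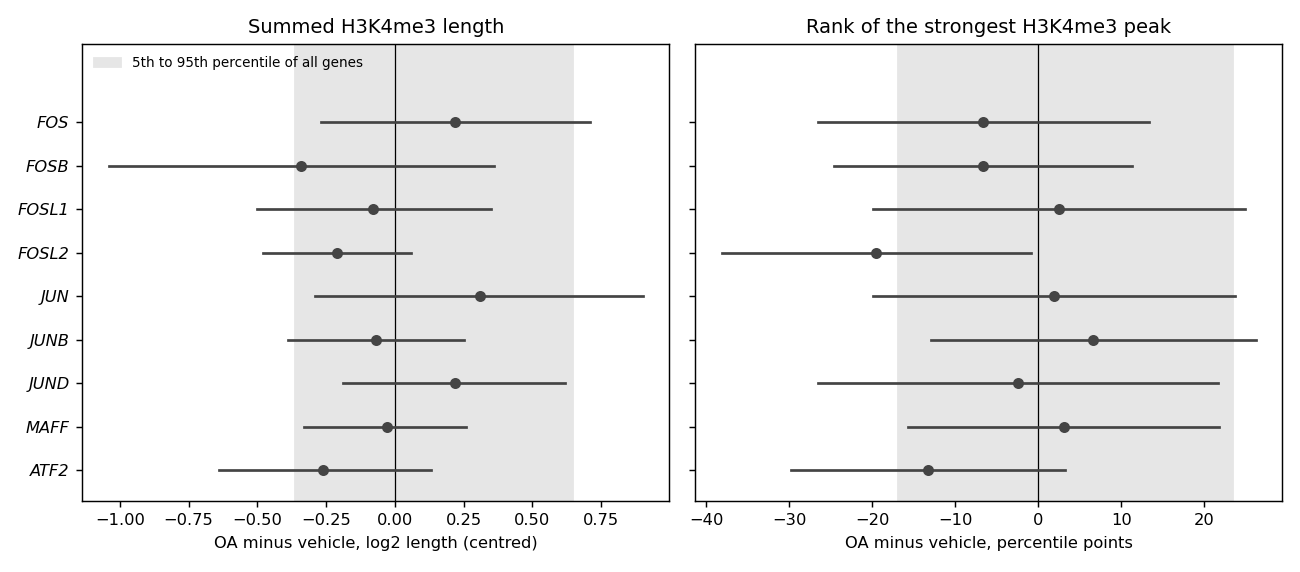
Points and lines give the OA minus vehicle difference and its 95% interval from limma for the 9 AP-1 genes (y axis), in log2 summed length centred on the median gene (left) and in percentile points (right), with grey bands from the 5th to the 95th percentile of the differences of all 11310 genes. The bands reach from -0.36 to 0.65 and from -16.91 to 23.50, and the point of *FOSL2* on the right is the one outside its band.

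Other genes of the pathway were read from lists of partners, kinases, early genes and targets, and none of their genes passed either limma test. Of 11 other basic leucine zipper partners 6 had H3K4me3 in all 6 libraries, as did 13 of 14 kinases and ternary complex factors, 12 of 14 immediate-early and feedback genes and 7 of 15 AP-1 target genes. The share over all protein-coding genes was 56.5%. The median rank difference was 7.21 points for the partners, -5.75 for the kinases, -5.45 for the early genes and 8.08 for the targets, beside -2.46 for the AP-1 members and 0.65 for all genes. The median length differences were 0.33, -0.06, -0.12, -0.03, -0.07 and -0.02 in the same order on the log2 scale. H3K27me3 regions were at 4 partners and 1 early gene, and at none of the kinases, targets or AP-1 members, beside 13.8% of all protein-coding genes.

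*BATF3*, a relative of *BATF* that encodes a dendritic cell factor, was the one listed gene called for H3K4me3 in all 3 OA and no vehicle library. Its peaks spanned 1160, 1026 and 1645 bp in OA, at percentiles 49.9, 31.9 and 90.1. Around its start sites H3K27me3 peaks summed to 2539, 2791 and 1886 bp in vehicle and to 448, 982 and 0 bp in OA. Lower H3K27me3 lengths in every OA library were found at 11.2% of the 2762 genes with an H3K27me3 region, and higher ones at 0.543%, counting 0 bp where no peak was called. OA replicate 3 had the shortest H3K27me3 peak list of the 6 libraries. *ATF3*, a stress-induced partner of JUN, carried both marks in all libraries, with H3K4me3 lengths of 1920, 972 and 481 bp in vehicle and 1065, 1500 and 3705 bp in OA. *EGR3*, an early growth response factor, had H3K27me3 in each vehicle library but, of the OA libraries, in replicate 1 alone. Among the 10 AP-1 members no gene showed such a pair of marks.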

How the data were processed

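Peak lists of 16 CUT&RUN libraries were used. The submitters' processing notes name MACS2 2.2.7.1, SICER, DiffBind 3.9 and hg38, although the layout of the H3K27me3 lists is the broadPeak format that MACS2 writes. The aligner, the treatment of duplicates and the control used in calling are not given in the sources used here. The fold (a ratio) of each peak and its −log10 p and −log10 q were computed by the authors' caller in each library separately and are not scaled between libraries. The members and lists were chosen with earlier results of these data known.

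Peaks on the autosomes, X and Y were merged over the 6 vehicle and OA libraries of a mark where they shared 1 bp, keeping those supported by 2 or more libraries (18734 for H3K4me3 and 32643 for H3K27me3). Regions within 3 kb of any GENCODE start site were assigned to the gene, and distances were taken from the Ensembl canonical start. Log2 summed length, centred on the median gene of each library, and the percentile of −log10 p of the strongest peak were compared with limma 3.58.1 (R 4.3.3), with treatment as the term, over all genes called in the 6 libraries. Reads and background of narrow peaks were solved from the fold and −log10 p by MACS2's Poisson formula for 100% of the peaks tried. This recovery, and the comparison of its reads, were added after the data were seen. The pairing of length with fold and the counts of folds without overlap were not planned either. All 10 members were named by rule. Genes of the pathway lists were named where they passed a test, were called in one treatment alone or had H3K27me3 in all libraries of a group, and epithelial markers that lacked a call were named after their values were seen. Alternatives were a q-value of at most 1e-05, equal numbers of peaks, 1 kb or canonical starts, 50% cover of a region, regions of any library, H3K27me3 peaks joined within 5 kb, lengths not centred, the longest peak, log2 fold, a replicate block and each replicate left out. The fits were tested on simulated data. Promoter sequences came from RefSeq (GRCh38.p14), with entries for 8 of the 10 members. Python 3.11.15, numpy 2.4.6, scipy 1.17.1 and pandas 2.3.3 were used.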

Additional observations from a re-analysis of the deposited data

Results flagged for a closer look

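The untreated H3K4me3 libraries entered no comparison. Peaks were present at 9 of the 10 AP-1 genes in untreated replicate 1 and at 9 in replicate 2, above the 1 and 0 genes with a peak in the IgG libraries. The share of all genes in the untreated libraries is not given. IgG peaks were counted only inside the merged vehicle and OA H3K4me3 regions, so *BATF*, which had no region, could not be counted. Summed lengths in the untreated libraries ran from 326 bp (*MAFF*, replicate 2) to 1513 bp (*FOSL1*, replicate 2), and the strongest peaks stood between percentiles 4.95 (*FOSB*, replicate 2) and 81.5 (*ATF2*, replicate 1). The untreated lists also held fewer peaks than any vehicle or OA H3K4me3 list, 12924 and 11242. Groups of 2 or 3 libraries were not tested for outlying values.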

How the results depend on the processing

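No AP-1 gene passed the length or the rank test under any alternative that was fitted; 50% cover, regions of any library and joined H3K27me3 peaks were applied to the calls alone. Over all genes, the length test called 0 except without vehicle replicate 3 (leaving out single replicates gave 0 to 11), and the rank test, with 9 calls, gave 51 with equal numbers of peaks, 69 with recovered reads, 5 with canonical starts, 1 with log2 fold, 0 at a q-value of at most 1e-05, and 0 to 323 without single replicates, the most without vehicle replicate 1. With the replicate block the tests called 0 and 4 genes, and no AP-1 gene. Same-numbered vehicle and OA libraries did not deviate together (correlations of 0.03, 0.11 and -0.26 in length, 0.19, 0.11 and -0.10 in rank), so the numbers were not taken as pairs. H3K4me3 in every library held for 4 genes (*FOSL2*, *JUNB*, *MAFF*, *ATF2*) where peaks had to cover 50% of a region. The share of all genes under that rule is not given, so the drop cannot be called particular to AP-1 genes. Counts of genes without overlap were 0 for lower percentiles with equal numbers of peaks, and leaving out single replicates gave 0 to 1 for higher percentiles, 0 to 1 for longer and 0 to 3 for shorter peaks. Shares of all genes under these settings are not given, so these counts have no background beside them. Of the differences of single members, 10 in length and 19 in rank changed sign, all uncalled. Without single replicates the length differences ran from -0.73 to 0.40 (*FOS*), -0.25 to 0.06 (*FOSL1*), -0.16 to 0.03 (*JUNB*) and -0.12 to 0.02 (*MAFF*), and the rank differences from -20 to 1.02 (*FOS*), -5.5 to 13.4 (*FOSL1*), -4.57 to 13.1 (*JUN*), -11.9 to 12.9 (*JUND*) and -2.87 to 9.88 (*MAFF*). Lengths not centred gave 0.08 (*FOSL1*), 0.09 (*JUNB*) and 0.12 (*MAFF*), and the longest peak 0.31 (*JUNB*). Equal numbers of peaks gave rank differences of -0.828 (*FOSL1*), -3.41 (*JUN*) and -2.09 (*MAFF*) percentile points, and the stricter q-value gave 1.33 points (*JUND*). In place of rank, and on the log2 scale, the fold gave -0.135 (*JUN*) and -0.126 (*JUNB*). Recovered reads, also on the log2 scale, gave 0.0204 (*FOS*) and 0.284 (*JUND*). Apart from the dropped *FOS* peak and the smaller sets of peaks or libraries, the cause was not tested. The number of libraries and their unequal depth limit every comparison.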
